A study of Mus musculus with 44 samples.

Results

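Sensory neurons isolated from the side opposite a partial sciatic nerve ligation were compared with neurons isolated after sham surgery. The comparison takes the 4 libraries labelled contra and the 6 sham libraries of the neuron table, 10 of the 44 libraries of the series. The contra neurons came from C57BL/6 mice of 9 to 11 weeks, 8 days after partial ligation, and their labels give no sex. The sham neurons came from C57BL/6 mice of the same ages, 8 days after a sham operation, on the operated side, with 3 libraries labelled male and 3 labelled female. A further 10 libraries hold neurons of the ligated side, 4 with no sex in their titles, 3 labelled male and 3 labelled female, and give the size of the injury response. In every group, lumbar ganglia were enzymatically dissociated and neurons were separated with magnetic beads, so the values are averages over many neurons of mixed type. No label links libraries to animals or says that ganglia of several mice were pooled, so p-values measure only the spread between libraries. Libraries are numbered here in the column order of the table, since its columns carry no replicate numbers.

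A cut or ligated peripheral axon makes its sensory neuron switch on a set of genes that are low in the intact ganglion. Transcription factors such as Atf3, Jun and Sox11 rise first, followed by growth-associated and cytoskeletal genes such as Sprr1a and Gap43, by neuropeptides such as galanin, and by Csf1, a growth factor for macrophages and microglia. The opposite side of an injured animal and the sham-operated side of another animal both serve as controls for this response, and sham surgery itself cuts skin and muscle around the nerve. The questions here are whether neurons of the uninjured side differ from sham neurons, and how high the injury genes stand after sham surgery.

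Most injury genes had lower values in opposite-side than in sham neurons, but no injury gene passed the test across all genes. Sprr1a was at or near 0 in all 4 opposite-side libraries. In sham libraries it ran from 0 to 96.5 FPKM (read fragments scaled to transcript length and library size, as the authors deposited them). The sham median was 12 FPKM. Atf3 and Anxa1 were also lower on average in opposite-side neurons. The genes that passed the test were Eif2s3y and Ddx3y, both on the Y chromosome and both higher in opposite-side neurons than in sham neurons of both sexes together. Both were at or near 0 in every female sham library, and their opposite-side values overlapped those of male sham libraries. Against male sham alone neither gene was called. The test was limma, which fits a linear model to each gene and shares the estimate of its spread across genes, with Benjamini-Hochberg adjustment. Of 12145 genes with at least 1 FPKM in at least 3 libraries, these 2 were called at an adjusted p under 0.05, which is 0.0165% of the genes tested, and 0 were called lower (0%). At an unadjusted p under 0.05 there were 783 genes (6.45%), 382 higher (3.15%) and 401 lower (3.3%). The median difference over all genes was 7.01e-04 on the log2(FPKM + 1) scale, and this scale, which understates the change of low genes, is used for every difference below.

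Between 10225 and 10930 genes reached 1 FPKM in opposite-side libraries and between 10638 and 11004 in sham libraries. Depth is unknown, because the table holds no counts. Opposite-side library 2, male sham library 2 and female sham library 1 stood apart. Opposite-side library 2 listed 1176 genes at 0, against 278 to 688 in the other opposite-side libraries and 211 to 526 in sham libraries, and its median Spearman correlation across genes with the other opposite-side and sham libraries was 0.822, against 0.892 to 0.932 for the rest. Without it, 522 genes had an unadjusted p under 0.05, against 783 with it, and Eif2s3y alone was called. Male sham library 2 and female sham library 1 had the lowest summed levels of mitochondrially encoded and of erythrocyte genes among these 10 libraries, given below. Without male sham library 2 there were 569 genes at an unadjusted p under 0.05 and Eif2s3y alone was called, and without female sham library 1 there were 587, with Eif2s3y and Sprr1a called. With any other of the 10 libraries left out this count rose, to between 795 (without female sham library 3) and 1230 (without opposite-side library 1). Of 15 pan-neuronal genes 14 were tested, with a median difference of -0.21 (-0.25 to -0.08 with any 1 library left out) and 0 called, and none was listed at 0 in all 10 libraries. Uchl1, a deubiquitinase abundant in neurons, stood at 1747 to 3536 FPKM in opposite-side libraries, the highest being library 2, and 1638 to 2097 FPKM in sham libraries.

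The promoters of the 3 injury markers are shown because these genes mark the injury response and because AP-1 dimers, which Jun and Atf3 can form, bind TGANTCA. Each stretch runs 5′ to 3′ on the minus strand of GRCm38.p6 and ends a short way past the RefSeq transcription start. All 3 markers were found in the RefSeq promoter set. Capitals mark TGANTCA, which reads the same on both strands.
Sprr1a, chr3:92485832-92486131: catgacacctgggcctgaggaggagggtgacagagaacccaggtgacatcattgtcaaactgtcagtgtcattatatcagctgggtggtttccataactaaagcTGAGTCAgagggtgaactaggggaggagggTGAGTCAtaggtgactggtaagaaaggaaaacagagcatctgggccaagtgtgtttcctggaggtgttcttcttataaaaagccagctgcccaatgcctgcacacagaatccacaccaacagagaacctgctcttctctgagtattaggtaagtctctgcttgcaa
Atf3, chr1:191183284-191183583: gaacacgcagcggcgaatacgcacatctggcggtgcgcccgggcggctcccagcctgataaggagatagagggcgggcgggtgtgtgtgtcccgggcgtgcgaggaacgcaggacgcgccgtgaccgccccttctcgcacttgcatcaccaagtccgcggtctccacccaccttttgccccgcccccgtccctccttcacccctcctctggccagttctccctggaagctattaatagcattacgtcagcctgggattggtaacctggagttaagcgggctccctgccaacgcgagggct
Anxa1, chr19:20390622-20390921: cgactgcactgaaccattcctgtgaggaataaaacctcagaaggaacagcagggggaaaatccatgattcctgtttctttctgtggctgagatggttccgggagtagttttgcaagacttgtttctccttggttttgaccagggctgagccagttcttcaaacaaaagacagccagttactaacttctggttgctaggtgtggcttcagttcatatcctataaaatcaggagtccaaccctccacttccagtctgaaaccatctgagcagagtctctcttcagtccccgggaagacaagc
The Sprr1a window held 2 matches, which start at bases 105 and 135 counted from its 5′ end. The Atf3 and Anxa1 windows held 0, and none of the 3 held TGACGTCA, the full cAMP response element, which shares no match with TGANTCA. Only the window shown was searched for each gene. The Atf3 and Anxa1 windows lie inside the gene spans given below, so the 5′ ends of those spans were not covered. Of 32851 promoter windows of the same length, 7.81% held TGANTCA and 1.79% held TGACGTCA.

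Sprr1a (ENSMUSG00000050359, chromosome 3, 92483952 to 92485895, GRCm38) encodes a small proline-rich protein that injured neurons produce during axon growth. In opposite-side libraries 1 to 4 it stood at 0.0702, 0.144, 0 and 0 FPKM. In male sham libraries 1 to 3 it stood at 5.96, 96.5 and 18.1 FPKM, and in female sham libraries 1 to 3 at 0, 3.62 and 28.4 FPKM. Every opposite-side library was at 0.144 FPKM or less, and 5 of 6 sham libraries were above them all, with female sham library 1 listed at 0. The difference was -3.38 ± 0.69 (SE), with an unadjusted p of 9.03e-05 and a limma adjusted p of 0.274, rank 4 of all genes by p. The exact two-sided permutation test over the 10 libraries gave p = 0.0476, or 0.0714 after Benjamini-Hochberg adjustment over the 3 marker tests, where the smallest p that its 210 splits allow is 0.0095. With male sham library 1 left out the difference was -3.82 (limma adjusted p = 0.0472), and with female sham library 1 left out it was -3.98 (limma adjusted p = 0.0112). Without opposite-side library 2 it was -3.42 (limma adjusted p = 0.649), and without male sham library 2 it was -2.87 (limma adjusted p = 0.507).

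Ligated-side neurons set the scale for these values. Sprr1a stood at 587 to 1362 FPKM in the 4 ligated-side libraries with no sex in their titles and at 339 to 916 FPKM in the 6 labelled by sex. The sham median was 2.22% of the median of the sex-labelled ligated-side libraries, and the opposite-side median was 0.00496% of that of the ligated-side libraries with no sex in their titles. The highest sham library, male sham library 2, was still below every ligated-side library. The authors' deposited table gives mean normalised counts of 6410 for Sprr1a, 4203 for Atf3 and 1059 for Anxa1 over the libraries it compares, which its header does not name.

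Atf3 (ENSMUSG00000026628, chromosome 1, 191170296 to 191218039), a stress-induced transcription factor that marks axotomised neurons, was detected in all 10 libraries. It stood at 9.93, 13.7, 4.30 and 3.09 FPKM in opposite-side libraries 1 to 4. In male sham libraries it stood at 18.5, 30.2 and 24.8 FPKM, and in female sham libraries at 3.05, 6.00 and 28.4 FPKM. All 3 male sham libraries were above all opposite-side libraries, and female sham libraries 1 and 2 lay within or below the opposite-side range. Atf3 averaged 7.76 ± 4.96 FPKM in opposite-side neurons (SD, n = 4) and 18.5 ± 11.6 FPKM in sham neurons (SD, n = 6). The difference of -0.999 ± 0.52 was not called (limma adjusted p = 0.739), and the exact two-sided permutation test gave p = 0.2, before and after adjustment over the 3 marker tests. Against male sham alone the difference was -1.70 ± 0.62, with an unadjusted p of 0.0126 and a limma adjusted p of 0.973, and against female sham alone it was -0.29 ± 0.62, with an unadjusted p of 0.642. Ligated-side Atf3 stood at 144 to 446 FPKM in the libraries with no sex in their titles and at 62.3 to 276 FPKM in those labelled by sex. The opposite-side median was 3.81% and the sham median 18.4% of the matching ligated-side medians.

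Anxa1 (ENSMUSG00000024659, chromosome 19, 20373428 to 20390944), a phospholipid-binding annexin with anti-inflammatory action, was listed at 0 in all 4 opposite-side libraries. It stood at 0, 4.59 and 3.50 FPKM in male sham libraries and at 0.0636, 2.18 and 1.30 FPKM in female sham libraries. Only male sham library 1 was also listed at 0, so 5 of 6 sham libraries were above every opposite-side library. The difference was -1.27 ± 0.57 (unadjusted p = 0.0391, limma adjusted p = 0.739), and the exact two-sided permutation test gave p = 0.0476, or 0.0714 after adjustment over the 3 marker tests. Ligated-side Anxa1 stood at 35.5 to 176 FPKM without sex in the title and 11.5 to 112 FPKM with it, and the sham median was 7.16% of the median of the sex-labelled libraries.

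**Figure D1:**
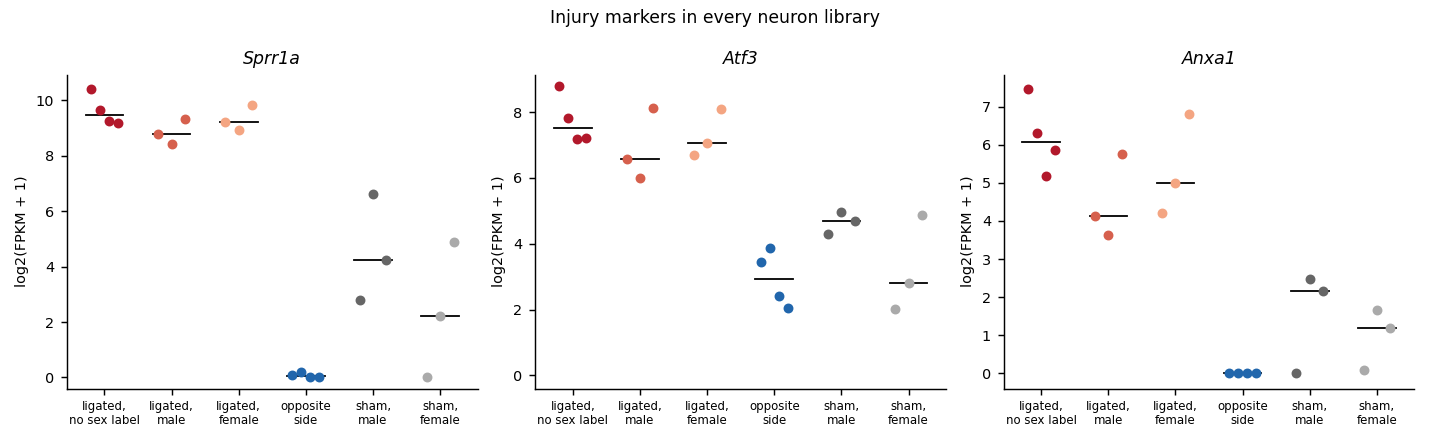
Level of Sprr1a, Atf3 and Anxa1 in each of the 20 neuron libraries, as log2(FPKM + 1), by group; points are libraries and lines are group medians. Opposite-side libraries lie at or near 0 for Sprr1a and Anxa1, sham libraries spread between them and the ligated-side libraries, and no sham or opposite-side library reaches a ligated-side one.

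The wider injury programme was read from 4 lists of injury-induced genes, of which 44 of 52 members were tested. Of these 44, 0 were called in either direction, where 0.0165% of all genes were called. At an unadjusted p under 0.05, 1 was higher and 9 were lower, where 3.15% and 3.3% of all genes were. Their median difference was -0.26 and 30 of 44 were negative, where 49.9% of all genes tested were. These shares are not a test, because the lists were chosen with earlier results of these data known. The expression filter also admitted genes, such as Npy, through the ligated-side libraries. Anxa1, Npy and Cckbr were at 0 in all opposite-side libraries, so their differences could not be positive. Without opposite-side library 2 the median was -0.15, the value nearest 0 with any 1 library left out. Against male sham alone it was -0.26, with 31 of 44 negative, and against female sham alone -0.16. In 1 of the 44 every opposite-side library was below every sham library, as in 0.412% of all genes. The mean over the 44 genes on the log2(FPKM + 1) scale was 3.58, 3.46, 3.51 and 3.31 in opposite-side libraries 1 to 4, 3.81, 4.17 and 3.84 in male sham libraries, and 3.52, 3.75 and 3.90 in female sham libraries. All opposite-side libraries but library 1 were below every sham library on this mean, and library 1 lay between female sham library 1 and the rest.

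Among 11 transcription factors, none passed the test and the median difference was -0.02. Sox11, which drives regrowth genes, stood at 4.24 to 6.54 FPKM in opposite-side libraries and 3.50 to 9.22 FPKM in sham libraries, and its difference was -0.04 ± 0.36. Stat3, the effector of gp130 cytokine signals, stood at 86.3 to 123 FPKM in opposite-side libraries and 85.3 to 113 FPKM in sham libraries. Jun, an AP-1 subunit, stood at 3.34 to 12.3 FPKM in opposite-side libraries and 2.96 to 17.4 FPKM in sham libraries. For these 3 factors the groups overlapped over most of their range. Sox4 was the member higher at an unadjusted p of 0.0443 (0.74 ± 0.34), with 8.83 FPKM in opposite-side library 2, against 1.47 to 1.92 FPKM in the other opposite-side libraries and 0.665 to 1.80 FPKM in sham libraries.

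Among 8 injury-regulated peptides and ligands, 7 differences were negative, where 49.9% of all genes tested were. None passed the test, and the median was -0.43, or -0.19 without opposite-side library 2. Gal, which encodes the neuropeptide galanin, stood at 151, 92.9, 89.8 and 121 FPKM in opposite-side libraries. It stood at 63.9, 184 and 155 FPKM in male sham and at 110, 72.7 and 165 FPKM in female sham libraries. The opposite-side values lay inside the sham range, with a difference of -0.06 ± 0.41, and both groups were far below the 373 to 2284 FPKM of the 10 ligated-side libraries. Csf1 stood at 1.501, 2.66, 3.11 and 3.10 FPKM in opposite-side libraries, against 3.91, 4.52 and 5.39 FPKM in male sham and 3.44, 3.84 and 6.05 FPKM in female sham libraries. This was the member whose groups did not overlap, with a difference of -0.63 ± 0.29 (unadjusted p = 0.0449, limma adjusted p = 0.739). Nts, which encodes neurotensin, stood at 4.87 to 14.5 FPKM in opposite-side libraries and 3.09 to 32.7 FPKM in sham libraries. Npy, which encodes neuropeptide Y, was listed at 0 in all 4 opposite-side libraries and in 4 of 6 sham libraries, and stood at 2.63 FPKM in male sham library 2 and 1.13 FPKM in female sham library 2.

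Among 11 axon growth and cytoskeletal genes, 8 differences were negative, 4 of them at an unadjusted p under 0.05, and none passed the test. These 4 were Sprr1a, Stmn4, Tubb6 and Gap43. Over all genes tested, 49.9% were negative and 3.3% were lower at that unadjusted p. Stmn4 (ENSMUSG00000022044, chromosome 14, 66344296 to 66361680), a stathmin that binds tubulin, stood at 13.1, 5.51, 7.43 and 7.39 FPKM in opposite-side libraries. It stood at 11.2, 31.7 and 23.2 FPKM in male sham libraries and 17.6, 14.3 and 28.3 FPKM in female sham libraries. Only opposite-side library 1 and male sham library 1 overlapped, and the difference was -1.21 ± 0.30 (unadjusted p = 7.70e-04, limma adjusted p = 0.649). Gap43, a protein of growth cones, stood at 112 to 169 FPKM in opposite-side libraries and 115 to 287 FPKM in sham libraries, where 5 of 6 were at 215 FPKM or more. Its difference was -0.61 ± 0.24 (unadjusted p = 0.0194). Tubb6, a beta-tubulin, ran from 0 to 10.7 FPKM in opposite-side libraries and from 4.15 to 25.3 FPKM in sham libraries. The most abundant members differed less. Stmn2, another stathmin, stood at 1138 to 1691 FPKM in opposite-side libraries and 1457 to 2037 FPKM in sham libraries, a difference of -0.17 ± 0.16, and Tubb2a differed by -0.35 ± 0.21.

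Among the 14 remaining injury genes, 9 differences were negative, 4 of them at an unadjusted p under 0.05, and none passed the test. Their median was -0.64, or -0.27 without opposite-side library 2. Over all genes tested, 49.9% were negative and 3.3% were lower at that unadjusted p. Besides Anxa1, the members lower at that p were Ecel1, Plaur and Gadd45a. They were picked after their values were seen, as were Cckbr, Csf1, Npy, Sox4, Sox11, Jun, Tubb6 and Gap43. Ecel1, a neuronal membrane peptidase induced by nerve injury, was listed at 0 in 3 opposite-side libraries and stood at 0.0347 FPKM in library 2. It stood at 0.971, 1.61 and 3.32 FPKM in male sham libraries and at 0.0568, 0 and 1.70 FPKM in female sham libraries, against 3.31 to 18.7 FPKM on the ligated side. All 3 male sham libraries were above the opposite-side ones, and the difference from sham was -0.99 ± 0.34 (unadjusted p = 0.00842, limma adjusted p = 0.739). It was -1.48 ± 0.40 against male sham alone (unadjusted p = 0.00142, limma adjusted p = 0.973) and -0.49 ± 0.40 against female sham alone (unadjusted p = 0.23). Gadd45a, a stress gene tied to DNA repair and demethylation, stood at 8.75 to 20.4 FPKM in opposite-side libraries and 17.4 to 28.7 FPKM in sham libraries. Plaur, the urokinase receptor, stood at 22.3, 2.83, 24.5 and 12.5 FPKM in opposite-side libraries and 19.5 to 29.3 FPKM in sham libraries, and without opposite-side library 2 its difference was -0.36 in place of -0.96. Cckbr, a cholecystokinin receptor, was listed at 0 in all opposite-side libraries and stood at 4.93 and 3.14 FPKM in male sham libraries 2 and 3, with at most 0.277 FPKM in the other 4. Cdkn1a, a cell cycle inhibitor, stood at 55.7 to 85.0 FPKM in opposite-side libraries and 53.9 to 111 FPKM in sham libraries and differed by 0.00 ± 0.20.

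**Figure D2:**
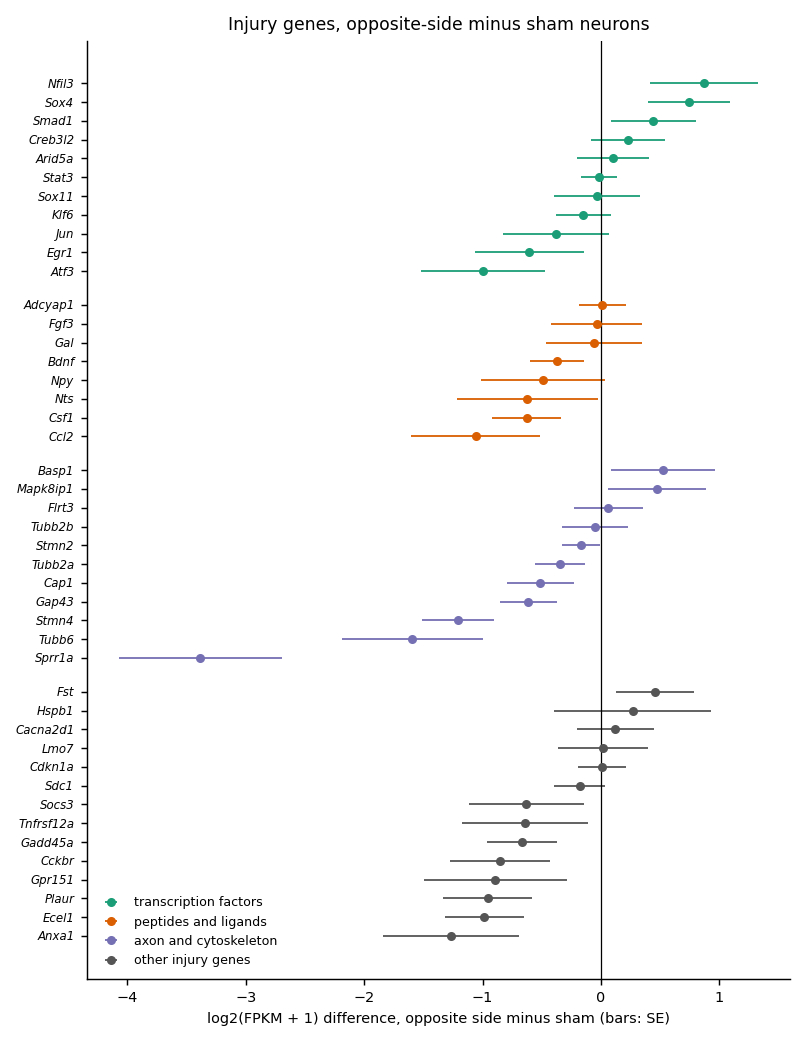
Difference between opposite-side and sham neurons for the 44 tested injury genes by role, on the log2(FPKM + 1) scale, with bars for the standard error of the limma fit. Sprr1a lies farthest to the left at -3.38, 30 of 44 genes lie left of 0, and the transcription factors are centred near 0.

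The level in sham and opposite-side neurons can be set against the level after ligation for genes that ligation raised. No neuron library came from unoperated mice. These levels therefore include any expression present without surgery, and the part due to sham surgery was not measured. In the libraries labelled by sex, 13 of the 44 injury genes were called higher on the ligated side than in sham neurons, where 0.28% of all genes were. In these 13, the sham median ranged from 0% to 54.6% of the ligated-side median, with a middle value of 17.5%. In the libraries with no sex in their titles, 21 of the 44 were called higher on the ligated than on the opposite side, where 0.659% of all genes were. In these 21, the opposite-side median ranged from 0% to 52.3% of the ligated-side median, with a middle value of 8.87%. The injury genes were chosen with earlier results of these data known, so the shares called are no independent evidence. The percentages cover only genes called higher in the same ligated-side libraries, which favours low values. These comparisons chose their genes separately and use different ligated-side libraries, so the 2 middle values are given side by side and their difference was not tested.

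Sham libraries differed among themselves in the injury genes. Male sham library 2 held the highest of the 10 values for 15 of the 44 genes, among them Sprr1a, Atf3, Anxa1 and Gap43, and none of the 44 was listed at 0 in it. Opposite-side library 2 held the highest value for 10 genes, and every other library for 1 to 6. Female sham library 1 was low for Sprr1a, Atf3 and Anxa1 alike. Male against female sham gave 3 genes called higher and 0 lower (0.0247% and 0% of 12145), with 150 at an unadjusted p under 0.05 (1.24%), and Atf3 differed by 1.41 ± 0.66 between them (limma adjusted p = 1).

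Y-linked genes gave the calls of the comparison. Eif2s3y (ENSMUSG00000069049, chromosome Y, 1010543 to 1028847), a translation initiation factor subunit, stood at 11.0, 14.0, 16.1 and 21.9 FPKM in opposite-side libraries. It stood at 20, 13.9 and 9.13 FPKM in male sham libraries and was listed at 0 in all 3 female sham libraries. Ddx3y (ENSMUSG00000069045, chromosome Y, 1260771 to 1286629), an RNA helicase, stood at 9.18, 8.43, 6.89 and 14.9 FPKM in opposite-side libraries, at 9.97, 10.5 and 7.40 FPKM in male sham libraries and at 0, 0.0157 and 0.0169 FPKM in female sham libraries. For both genes the opposite-side libraries overlapped the male sham libraries and lay above all female sham libraries. The differences from sham were 2.09 ± 0.26 for Eif2s3y (limma adjusted p = 0.00236) and 1.71 ± 0.27 for Ddx3y (limma adjusted p = 0.0219), and against male sham alone they were 0.15 and 0.04. Eif2s3y stayed called with any 1 of the 10 libraries left out, with limma adjusted p between 0.00178 and 0.0257. Ddx3y was called only with opposite-side library 3 (limma adjusted p = 0.0312) or male sham library 1 (limma adjusted p = 0.0428) left out, and not with any of the other 8 left out.

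The remaining sex-linked genes were not called against both sham sexes together in the fit above. With another pseudocount or with weighted libraries, given below, Uty was called. Uty, a histone demethylase homologue on the Y chromosome, stood at 3.17 to 6.09 FPKM in opposite-side libraries, 2.43 to 4.78 FPKM in male sham libraries and 0 in female sham libraries, with a limma adjusted p of 0.0722 against both sham sexes together. Kdm5d, a histone demethylase of the Y chromosome, stood at 0.851 to 3.00 FPKM in opposite-side libraries, 0.970 to 2.44 FPKM in male sham libraries and 0 in female sham libraries. Xist, the RNA that coats the inactive X chromosome, was listed at 0 in 3 opposite-side libraries and stood at 0.0641 FPKM in library 1, against at most 0.00276 FPKM in male sham libraries and 0.493, 2.42 and 1.64 FPKM in female sham libraries. Tsix, its antisense partner, whose reads cannot be told apart from those of Xist without strand, was listed at 0 in all opposite-side and male sham libraries and stood at 0.310 to 1.57 FPKM in female sham libraries. The X-linked partners Ddx3x, Eif2s3x, Kdm5c and Kdm6a differed by -0.18, -0.21, 0.09 and 0.18, none of them called. Against male sham alone 0 genes were called by limma in either direction (0% of 12145), with 444 at an unadjusted p under 0.05 (3.66%). Against female sham alone Uty, Ddx3y and Eif2s3y were called higher and 0 lower (0.0247% and 0%), with 636 at an unadjusted p under 0.05 (5.24%).

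**Figure D3:**
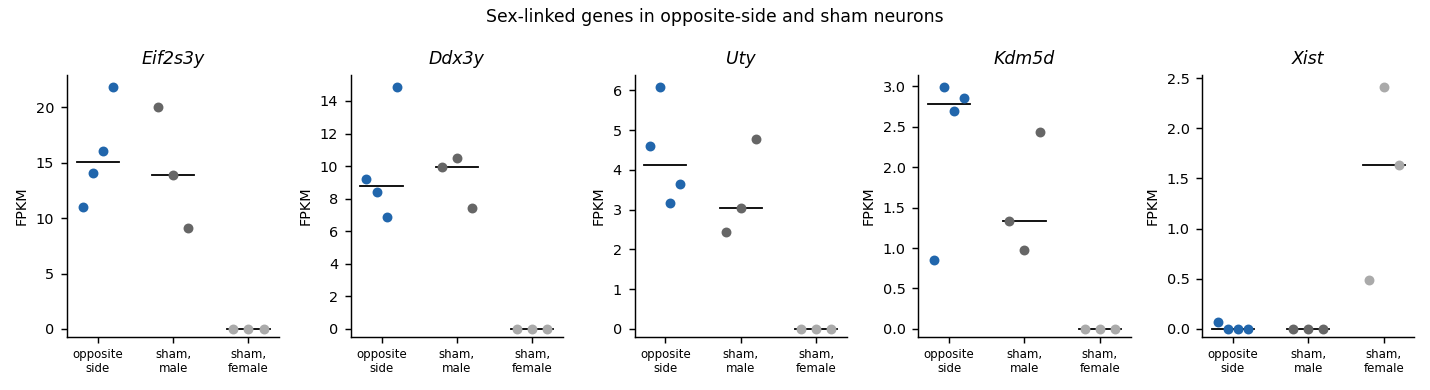
FPKM of 4 Y-linked genes and of Xist in opposite-side, male sham and female sham libraries; points are libraries and lines are group medians. The 4 opposite-side libraries lie with the male sham libraries for every gene shown, and the female sham libraries are at or near 0 for the Y-linked genes.

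Because opposite-side titles carry no sex and sham titles do, the same split of titles was examined on the ligated side, where surgery and side are the same and no library is shared with the comparison above. Ligated-side libraries with no sex in their titles against those labelled by sex gave 2 calls, Eif2s3y and Ddx3y, both higher (0.0165% of 12145), and 897 genes at an unadjusted p under 0.05 (7.39%). The sources used here do not say whether the 2 sets of titles are separate batches, so the set and the side of the nerve cannot be told apart for opposite-side against sham neurons. The 3 injury markers had positive differences on the ligated side, where Sprr1a differed by 0.55 ± 0.69, Atf3 by 0.67 ± 0.52 and Anxa1 by 1.28 ± 0.57, none of them called. The difference between the 2 differences was -3.93 ± 0.97 for Sprr1a, -2.55 ± 0.81 for Anxa1 and -1.66 ± 0.74 for Atf3, each with a limma adjusted p of 0.99986. Over all genes that test called 0 by limma (0%), with 405 at an unadjusted p under 0.05 (3.33%).

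Outside the injury programme, the genes with the smallest p among those above 0 in all 10 libraries were not called either. The 6 named in the higher direction were Chek2, Mterf2, Mocos, Mtg2, Stxbp2 and Pnisr. Chek2, a DNA damage checkpoint kinase, stood at 4.52, 8.92, 4.55 and 7.79 FPKM in opposite-side libraries and 0.492 to 2.39 FPKM in sham libraries, without overlap. Its difference was 1.70 ± 0.36 (limma adjusted p = 0.339), and the 2 sets of ligated-side libraries differed by 1.27 ± 0.36 in the same gene. Mterf2, a regulator of mitochondrial transcription, stood at 9.84 to 27.7 FPKM in opposite-side libraries and 5.43 to 9.41 FPKM in sham libraries, a difference of 1.14 ± 0.27 (limma adjusted p = 0.592). Mtg2, a GTPase of the mitochondrial ribosome, stood at 11.8 to 24.8 FPKM in opposite-side libraries and 6.57 to 11.3 FPKM in sham libraries. Mocos, a molybdenum cofactor sulfurase, also did not overlap between the groups, at 1.87 to 8.44 FPKM in opposite-side libraries and 0.0178 to 1.71 FPKM in sham libraries. Stxbp2, a syntaxin-binding protein of vesicle release, and Pnisr, a splicing-related protein, each overlapped through male sham library 1, and Pnisr differed by 1.11 ± 0.31 here and by 1.25 ± 0.31 between the ligated-side sets.

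The 6 named genes that were lower were Abcg2, Dhdds, Stmn4, Bcl7b, Tmem231 and Arl4d. Abcg2, a drug and urate efflux transporter, stood at 23.1, 8.88, 11.9 and 5.39 FPKM in opposite-side libraries and 18.7 to 37.0 FPKM in sham libraries, a difference of -1.23 ± 0.29 (limma adjusted p = 0.592). Dhdds, which makes the dolichol precursor used in protein glycosylation, stood at 22.0, 9.996, 18.1 and 15.0 FPKM in opposite-side libraries and 26.3 to 32.8 FPKM in sham libraries. These groups did not overlap, and the difference was -0.87 ± 0.21 (limma adjusted p = 0.592). Bcl7b, a subunit of the BAF chromatin remodelling complex, was at 11.3 to 26.6 FPKM in opposite-side libraries and 31.4 to 37.9 FPKM in sham libraries, again without overlap. Arl4d, an ARF-like GTPase, was at 0.147 to 4.28 FPKM in opposite-side libraries and 4.90 to 13.3 FPKM in sham libraries. Tmem231, a protein of the ciliary transition zone, overlapped, at 3.02 to 11.2 FPKM in opposite-side libraries and 9.33 to 16.9 FPKM in sham libraries. Over all genes, every opposite-side library was below every sham library in 0.412% and above every sham library in 0.354%.

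Nociceptor genes had median differences close to 0. Of 8 peptidergic nociceptor genes, 0 were called and the median difference was -0.09, with a turn to 0.07 without opposite-side library 2. Calca, which encodes the peptide CGRP, stood at 1964 to 3571 FPKM in opposite-side libraries and 1882 to 4767 FPKM in sham libraries, a difference of -0.06 ± 0.25. Of 12 genes of nonpeptidergic and itch neurons, 0 were called, with a median of -0.02. Mrgprd, a receptor that marks nonpeptidergic nociceptors, differed by -0.20 ± 0.21, and Scn10a, the sodium channel Nav1.8, by -0.01 ± 0.18. Of 17 tested channels and receptors of pain, 0 were called, with a median of 0.06, or -0.07 without opposite-side library 2. Grik1, a kainate receptor subunit, and Scn9a, the sodium channel Nav1.7, differed by -0.23 ± 0.23 and -0.08 ± 0.18. Asic3, an acid-sensing channel of muscle and joint afferents picked after its values were seen, had the smallest p of that list, with 38.2, 9.54, 9.33 and 19.3 FPKM in opposite-side libraries and 25.1 to 116 FPKM in sham libraries (-1.49 ± 0.43, unadjusted p = 0.00268, limma adjusted p = 0.739).

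All 9 tested genes of large-diameter neurons had negative differences, where 49.9% of all genes tested did. Of the 9, 0 passed the test, with a median of -0.35. The median was -0.14 without female sham library 2 and -0.58 without female sham library 3. Nefh, the heavy neurofilament of myelinated neurons, stood at 28.4, 50.3, 26.0 and 23.4 FPKM in opposite-side libraries, at 33.7, 52.8 and 43.0 FPKM in male sham and at 46.0, 186 and 33.3 FPKM in female sham libraries. Opposite-side library 2 overlapped the sham range and the other 3 were below it, and the difference was -0.77 ± 0.35 (unadjusted p = 0.04, limma adjusted p = 0.739). Ntrk3, the neurotrophin-3 receptor of proprioceptors, differed by -0.35 ± 0.40. The summed level of the list was 55.9, 83.8, 61.2 and 57.3 FPKM in opposite-side libraries, 64.6, 96.6 and 77.8 FPKM in male sham and 199, 283.6 and 57.8 FPKM in female sham libraries. Female sham libraries 1 and 2 had the highest sums, and against male sham alone 6 of the 9 genes were negative. In such bulk libraries fewer cells of a type and less RNA per cell cannot be told apart.

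Genes listed as markers of other cell types were also detected in the neuron libraries, and 0 members of any of these lists passed the test. Whether their transcripts came from other cells or from neurons was not tested. Listed members that were not tested are missing from the authors' deposited values. Of 15 satellite glial genes 7 were tested, with a median difference of -0.04, or 0.14 without opposite-side library 2, and summed levels of 249.7 to 278.0 FPKM in opposite-side libraries and 241.0 to 439.8 FPKM in sham libraries. Of 10 myelinating Schwann cell genes 7 were tested, with sums of 731.1 to 1740.7 FPKM in opposite-side libraries and 1102.5 to 2377.5 FPKM in sham libraries. Pmp22, a myelin protein, differed by -0.24 ± 0.33 and Mbp, myelin basic protein, by 0.44 ± 0.42. Of 13 endothelial and mural genes 6 were tested, and they summed to 75.3 to 158.3 FPKM in opposite-side libraries and 58.5 to 94.1 FPKM in sham libraries. Egfl7, an endothelial secreted factor, stood at 41.4, 54.5, 37.0 and 114 FPKM in opposite-side libraries and 25.5 to 39.8 FPKM in sham libraries, and overlapped through library 3 (0.78 ± 0.32, limma adjusted p = 0.739), and Rgs5, a pericyte gene, differed by 0.64 ± 0.26. Of 12 macrophage genes 1 was tested, Aif1, which ran from 0 to 8.23 FPKM in opposite-side libraries and 0 to 2.52 FPKM in sham libraries. Of 12 lymphocyte and neutrophil genes 5 were tested, with sums of at most 2.58 FPKM in opposite-side libraries and 14.9 FPKM in sham libraries. None of the tested members of these lists was listed at 0 in all 10 libraries, and their part in the differences above was not tested.

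Haemoglobin and mitochondrial transcripts varied widely between libraries. The 5 erythrocyte genes summed to 4088.2, 18963.2, 18612.1 and 7006.7 FPKM in opposite-side libraries. They summed to 15320.3, 354.3 and 9511.8 FPKM in male sham libraries and 763.4, 3584.0 and 9907.2 FPKM in female sham libraries. The 5 genes had a median difference of 1.52, or 0.69 without male sham library 2, and the ligated-side sets differed by a median of 1.87 in the same genes. Hbb-bs and Hba-a1, globin genes whose near-identical copies make their own values uncertain, differed by 1.70 ± 1.06 and 1.44 ± 0.91, and 0 of the 5 were called. The 11 mitochondrially encoded genes summed to 1058.4 FPKM in male sham library 2 and 1017.7 FPKM in female sham library 1, against 5815.0 to 11269.5 FPKM in opposite-side libraries and 6703.7 to 12312.8 FPKM in the other 4 sham libraries. The same 2 sham libraries were thus lowest of the 10 for haemoglobin and for mitochondrial genes, and they were the highest and the lowest sham library for Sprr1a. Low sums were not particular to sham. Ligated-side male library 1 and female library 1 had mitochondrial sums of 449.9 and 806.8 FPKM and erythrocyte sums of 2322.4 and 560.7 FPKM. The mitochondrial genes had a median difference of 0.63 from sham, and the ligated-side sets differed by a median of 1.57 in them. The part of this variation in the differences above was not tested.

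**Figure D4:**
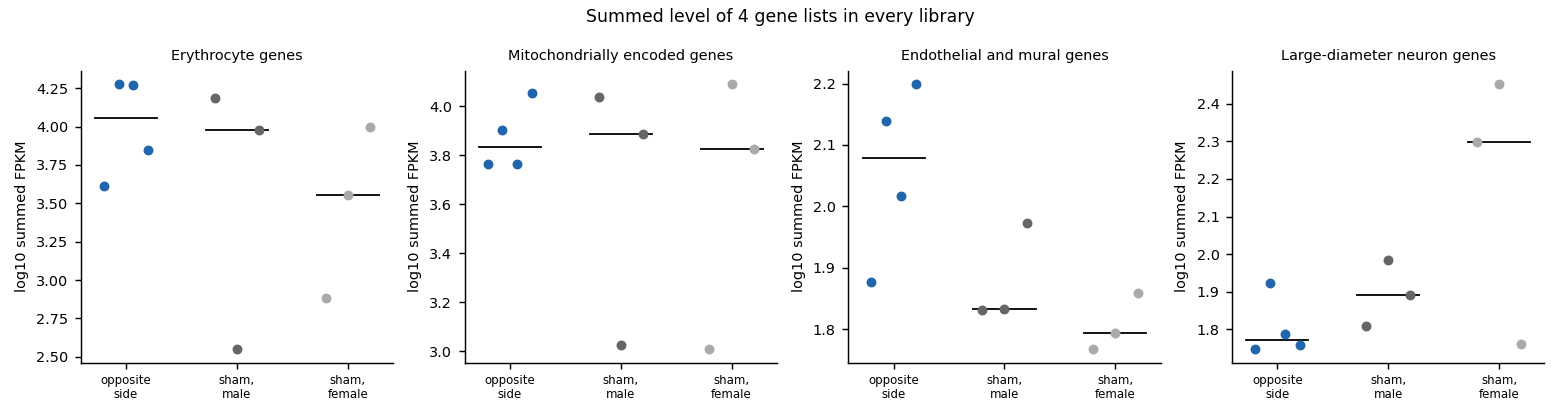
Summed FPKM of 4 gene lists in each opposite-side, male sham and female sham library, on a log10 scale; points are libraries and lines are group medians. Male sham library 2 and female sham library 1 lie far below the rest for erythrocyte and mitochondrially encoded genes, 3 of 4 opposite-side libraries lie above every sham library for endothelial and mural genes, and female sham libraries 1 and 2 are highest for large-diameter neuron genes.

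Stress and metabolic lists held 0 called members. Their counts of negative differences stand beside 49.9% of all genes tested. Of 18 cholesterol synthesis genes 16 were negative with a median of -0.17 (-0.07 without opposite-side library 2), and Hmgcs1 and Fdps, which encode enzymes of that pathway, differed by -0.19 ± 0.19 and -0.09 ± 0.18. Of 10 antigen presentation genes 9 were negative with a median of -0.23 (-0.06 without opposite-side library 4), led in level by H2-D1 (-0.47 ± 0.26) and B2m (-0.33 ± 0.22), a class I heavy chain and its light chain. Of 17 interferon response genes 10 were negative with a median of -0.07 (-0.23 to 0.01 with any 1 library left out). Of 14 genes of the unfolded protein and amino acid stress response 9 were negative with a median of -0.17 (-0.29 to -0.11 with any 1 library left out), with Hspa5, the main chaperone of the endoplasmic reticulum, at -0.46 ± 0.23. Immediate early and dissociation genes, which enzymatic dissociation can induce, had a median of 0.07 over 12 genes (-0.03 to 0.21 with any 1 library left out), with Ier3 and Hsph1 at -0.04 ± 0.14 and 0.10 ± 0.17. Of 12 glucocorticoid targets 9 were negative with a median of -0.10 (-0.21 to 0.00 with any 1 library left out). In 1 of the 12, Sgk1, every opposite-side library was below every sham library, as in 0.412% of all genes. Sgk1, a kinase that regulates ion transport, picked after its values were seen, stood at 0.444, 0.318, 0.281 and 0.517 FPKM in opposite-side libraries and 1.62 to 4.08 FPKM in sham libraries (-1.34 ± 0.42, unadjusted p = 0.0051, limma adjusted p = 0.739).

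**Figure D5:**
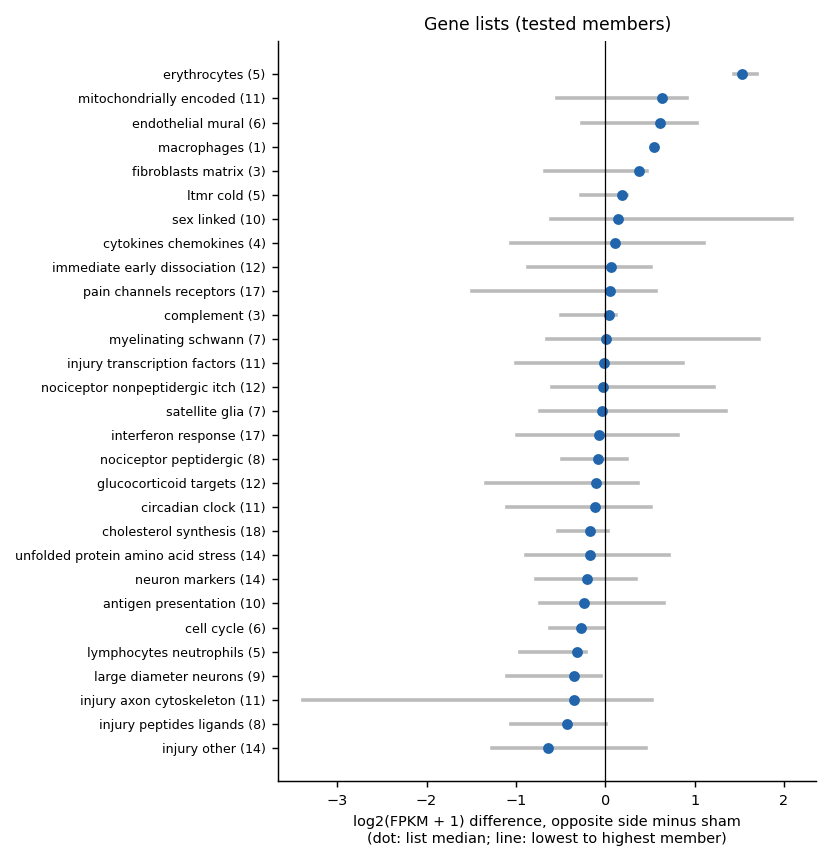
Median difference between opposite-side and sham neurons of each gene list (dot) and its lowest and highest member (line), on the log2(FPKM + 1) scale, with the number of tested members in parentheses. Erythrocyte genes lie farthest to the right at 1.52 and the list of other injury genes farthest to the left at -0.64 (-0.27 without opposite-side library 2, when it is no longer the lowest), and outside the sex-linked list no member was called.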

How the data were processed

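Neuron libraries were analysed from the authors' deposited table of FPKM values (fragments scaled to gene length and library size), made by the authors and listing 12170 genes. Tools named, per the submitters' processing notes, are STAR, SAMtools, Cufflinks and DESeq2 with build mm10. Their versions and roles are not given in the sources used here. Mean normalised counts (a signal per gene) come from the authors' deposited DESeq2 table. The depth of the libraries is unknown, and no pair of the 20 columns was identical. Names and coordinates follow GENCODE M21, which matched 12121 genes.

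Genes with at least 1 FPKM in at least 3 libraries (12145) were tested on log2(FPKM + 1), a pseudocount of 1, with limma 3.58.1 in R 4.3.3, in a trended fit over all 20 neuron libraries in 6 groups. Opposite-side neurons were set against the mean of male and female sham. Adjusted p-values are Benjamini-Hochberg over all genes, and genes under 0.05 were called. The procedure was tested on simulated data. Marker genes also had an exact permutation test (scipy 1.17.1). Python 3.11.15, pandas 2.3.3 and matplotlib 3.10.9 were used.

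Members and the 29 gene lists were chosen with earlier results of these data known. Named genes are Sprr1a, Atf3, Anxa1, the called genes and the sex-linked genes. Added to them are the 6 smallest p-values in each direction among genes above 0 in all 10 libraries. From each list the 2 most abundant members could be named, and not all of them are described. Others are said in the text to be picked after their values were seen. Alternatives were another pseudocount, filter, scaling, weighting and grouping, each sham sex alone, and each library left out. Male sham alone without opposite-side library 2 was added after seeing the data. Libraries of other cells, scaled in separate tables, were not used here.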

Additional observations from a re-analysis of the deposited data

Results flagged for a closer look

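In 12 of 130 groups of 4 or 6 libraries examined, 1 library lay far from the others of its group. The groups covered the markers, the called, smallest-p and sex-linked genes, the injury genes and library measures. The rule is set so that chance flags about 1 in 20 groups. Flags of genes under 1 FPKM throughout a group were dropped, so that rate is only a rough guide. Of the 12, 7 were opposite-side groups and 5 sham groups, and 6 of the 7 were opposite-side library 2. In that library Arl4d stood at 0.147 FPKM (3.10 to 4.28 FPKM in the other opposite-side libraries), Sox11 at 4.24 FPKM (6.10 to 6.54 FPKM), Smad1 at 42.1 FPKM (8.40 to 10.7 FPKM), Creb3l2 at 4.00 FPKM (1.45 to 1.53 FPKM), Sox4 at 8.83 FPKM (1.47 to 1.92 FPKM) and Mapk8ip1 at 70.5 FPKM (15.2 to 17.7 FPKM). Kdm5d stood at 0.851 FPKM in opposite-side library 1, against 2.70 to 3.00 FPKM in the others.

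Among sham libraries, male sham library 1 stood apart for Smad1 at 18.7 FPKM (7.71 to 10.4 FPKM in the others), for Gap43 at 115 FPKM (215 to 287 FPKM) and for Socs3 at 9.44 FPKM (1.91 to 3.45 FPKM). Bdnf stood at 26.8 FPKM in male sham library 3 (16.7 to 18.4 FPKM in the others), and Cdkn1a at 111 FPKM in male sham library 2 (53.9 to 68.0 FPKM).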

How the results depend on the processing

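The 2 calls of opposite-side against sham neurons became 3, with Uty added, in 3 settings. These were a pseudocount of 0.1 (Uty limma adjusted p = 0.00262), weighted libraries (0.0258) and female sham alone (0.000235). The calls became 1 with quantile normalization and 0 with the opposite-side and sham libraries fitted alone (523 genes at an unadjusted limma p under 0.05), with sham as one group (840), with male sham alone (444) and with male sham alone without opposite-side library 2 (329). With 1 library left out they ranged from 1 to 4. Called list members likewise numbered 3 in the 3 settings that added Uty and 1 with quantile normalization. They numbered 0 in the 4 settings without a call, and 1 to 3 with a library left out. With a library left out, calls ranged from 1 to 10 between the ligated-side sets, from 0 to 1 for the difference between the differences, from 0 to 1 against male sham and from 3 to 5 against female sham. Sprr1a differed by -5.61 with a pseudocount of 0.1, -4.48 against male sham, -2.29 against female sham, -4.52 against male sham without opposite-side library 2, and -3.98 to -2.76 with a library left out. Anxa1 differed by -3.29 with a pseudocount of 0.1, and Atf3 by -2.02 against male sham without opposite-side library 2. The sign turned, with a move beyond the spread between libraries, for Xist against male sham (0.021, and 0.029 without opposite-side library 2), for Kdm5c against female sham (-0.40), and, against male sham without opposite-side library 2, for Dcn (0.047), Smad1 (-0.21) and Basp1 (-0.21). The cause was not tested. Counting also smaller moves about 0, 43 of 110 named or injury genes changed sign in at least 1 of 21 alternatives.

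No paired analysis was possible because the columns carry no replicate numbers, so the replicate block was not run. Depth is unknown, which leaves values near 0 without a detection limit. Sham sex, set of titles and side of the nerve are unevenly spread over the groups, and 4 against 6 libraries set the precision.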

Other observations

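Gene groups not described above had 0 called members by limma. Over all genes tested, 49.9% of differences were negative. Th, the tyrosine hydroxylase of C-fibre mechanoreceptors, stood at 352.7 to 529.6 FPKM in opposite-side libraries and 310.2 to 651.7 FPKM in sham libraries, and Piezo2, the touch channel, at 41.5 to 125 FPKM in opposite-side libraries and 33.1 to 92.6 FPKM in sham libraries. The 5 tested genes of low-threshold and cold neurons had a median difference of 0.19, or 0.04 without female sham library 3. Of 6 tested cell cycle genes all 6 were negative with a median of -0.27 (-0.50 without opposite-side library 4), and Pcna, the sliding clamp of DNA replication, differed by -0.30 ± 0.21. Of 11 clock genes 6 were negative with a median of -0.12 (-0.20 to 0.01 with any 1 library left out), and Cry2, a clock repressor, differed by -0.24 ± 0.19.

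Of 3 tested complement genes 1 was negative, Serping1, the C1 inhibitor, at 172.1 to 381.5 FPKM in opposite-side libraries and 299.1 to 520 FPKM in sham libraries (-0.50 ± 0.21, unadjusted p = 0.0307, limma adjusted p = 0.739). Of 4 tested cytokine genes 2 were negative with a median of 0.11 (-0.03 without opposite-side library 2), and Il18 differed by 0.27 ± 0.59. The 3 tested fibroblast genes had a median of 0.37 (-0.01 without opposite-side library 4). Of these, 2 were positive, and the negative member was Dcn, a matrix proteoglycan, at -0.67 ± 0.40. Nppb, which encodes an itch neuropeptide and was picked after its values were seen, stood at 38.5, 32.2, 74.5 and 54.5 FPKM in opposite-side libraries, above 5 of 6 sham libraries, which ranged from 8.52 to 67.3 FPKM (1.22 ± 0.56, unadjusted p = 0.0421, limma adjusted p = 0.739).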
